A study of Mus musculus with 6 samples.

Results

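The genes described here are 29 mouse genes of lower glycolysis and of the transcriptional response to low oxygen, found by gene symbol in the authors' annotated tables, out of 47643 genes in the count tables. They are 13 enzymes from phosphoglucose isomerase to pyruvate kinase, 3 bifunctional regulators of phosphofructokinase, the oxygen-sensitive factor Hif1a, the prolyl hydroxylases Egln1 and Egln3, and 10 target genes of the hypoxia response. All 29 had counts, and 28 passed the filter on low counts. The filter left out Adm. RNA was sequenced from pancreatic islets of 3 wild-type libraries (WT 1 to WT 3) and 3 libraries with a miR-203 transgene specific to beta cells (TG 1 to TG 3). The labels describe the mice of both genotypes as male and 10 weeks of age, with a fast of 12 h. The sources used here do not give the strain, the transgene's promoter or line, or whether a library stems from 1 animal or a pool. Counts are in 2 tables: WT 1, WT 2, TG 1 and TG 2 in the first, WT 3 and TG 3 in the second, and each TG library was compared with the WT libraries deposited with it, called its WT level below. Values listed across a genotype follow the library numbers. Nothing states that separate animals gave the libraries, so a p-value measures only the spread between these samples, and that spread may be technical.

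Glycolysis splits glucose into pyruvate. Its investment phase spends ATP to form triose phosphates, and its payoff phase returns ATP and NADH. When oxygen is scarce, prolyl hydroxylases stop marking the HIF alpha subunits for degradation by the VHL protein, and HIF then binds short DNA motifs and raises transcription of most glycolytic enzymes and of genes for blood vessel growth, mitophagy, pH control and collagen modification. EGLN3 and EGLN1 are both oxygen sensors and HIF targets, so they form a negative feedback. Beta cells rely on glycolysis coupled to mitochondrial oxidation for glucose-stimulated insulin secretion, and normal beta cells keep lactate production low.

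Total counts ranged from 20176456 to 27482339 per library. The Mir203 locus, a check of the genotype, had 170, 164 and 150 counts across TG, 39 in the library labelled WT 1 and 0 in the other WT libraries. Contrary to the label male, WT 3 and TG 3 had 25145 and 27240 counts of Xist, the RNA of the inactive X chromosome. The libraries of the first table had 4 to 13. Y-linked genes had 16 and 1 counts in WT 3 and TG 3, against 5463 to 7468 in the first table. Both measures divide the libraries as the tables do, so sex and table cannot be told apart. Beta-cell transcripts were low in TG 1 and TG 3: Ins2 stood at 156245, 168105 and 79299 CPM across WT and 23309, 149455 and 27237 CPM across TG. CPM are counts scaled to library size after TMM adjustment. Islet defining markers such as Ins2 and Gcg were present in all 6 libraries.

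The glycolytic and hypoxia genes were mostly high in TG 1, mostly near the wild-type level in TG 2 and mostly near or below it in TG 3. Egln3 and Pfkfb3 were also high in TG 3, as was Car9, though on only 11 counts against 2 in WT 3. On the log2 CPM scale, the median of the 28 tested members differed from the WT level by 1.29 in TG 1, -0.0061 in TG 2 and -0.25 in TG 3, while the median of all 16072 tested genes differed by -0.0092, -0.0052 and -0.012. Of the 28, 16 were at least 1 log2 unit above the WT level in TG 1, where 9.26% of all tested genes were. In TG 2 this held for 0 members (2.25% of all genes) and in TG 3 for 3 members (11.4%), Egln3, Pfkfb3 and Car9. At least 1 log2 unit below it were Pfkfb2 in TG 1 (3.83% of all genes), P4ha2 in TG 3 (4.27%) and 0 members in TG 2 (1.13%). In bulk RNA, fewer cells of a type and less RNA per cell cannot be told apart.

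**Figure D1:**
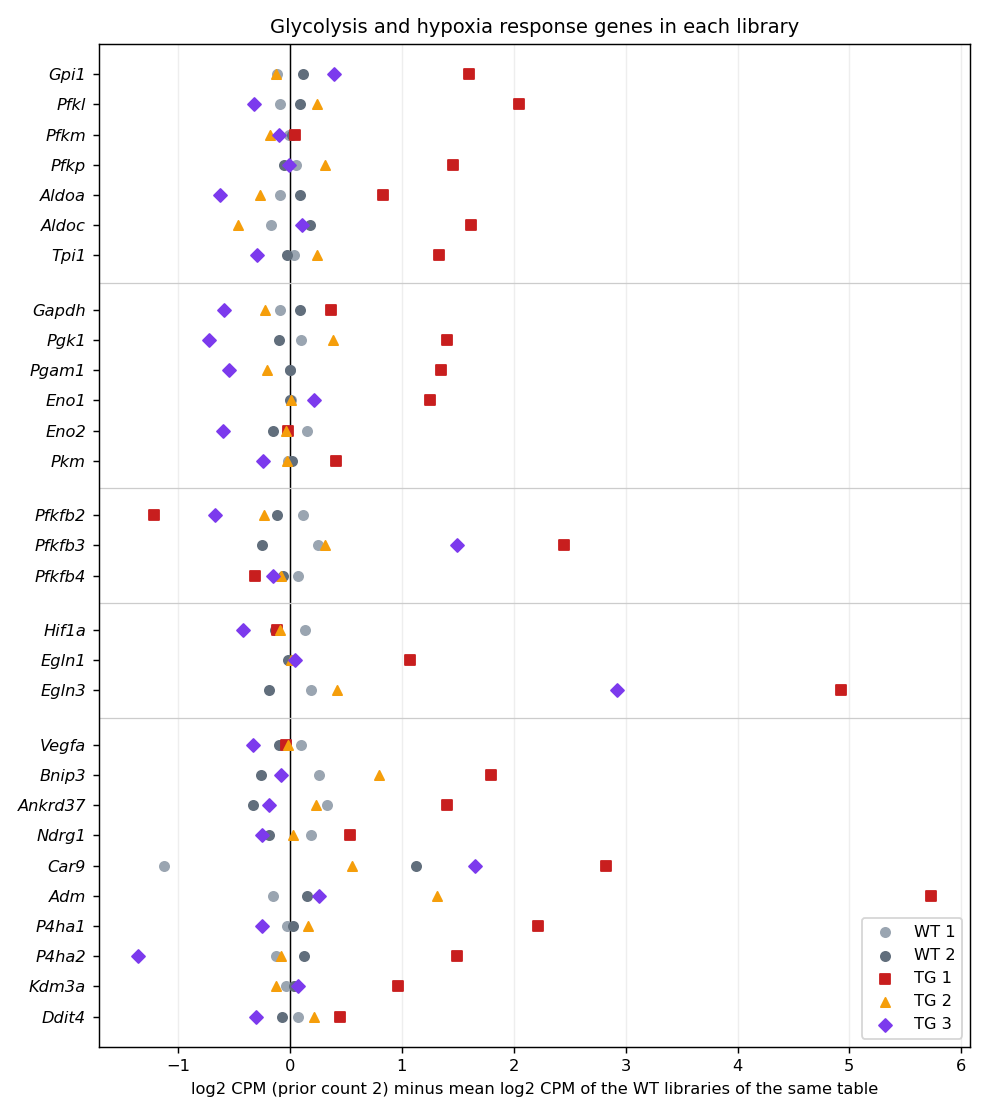
Difference of each of the 29 genes from the WT libraries of its table, on the log2 CPM scale (prior count 2), by library, without WT 3, which sits at 0 by construction. Of the tested genes, 16 have a TG 1 square to the right of 1. TG 2 and TG 3 lie on either side of 0, with Egln3, Pfkfb3 and the low-count Car9 to the right in TG 3 as well.

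**Figure D2:**
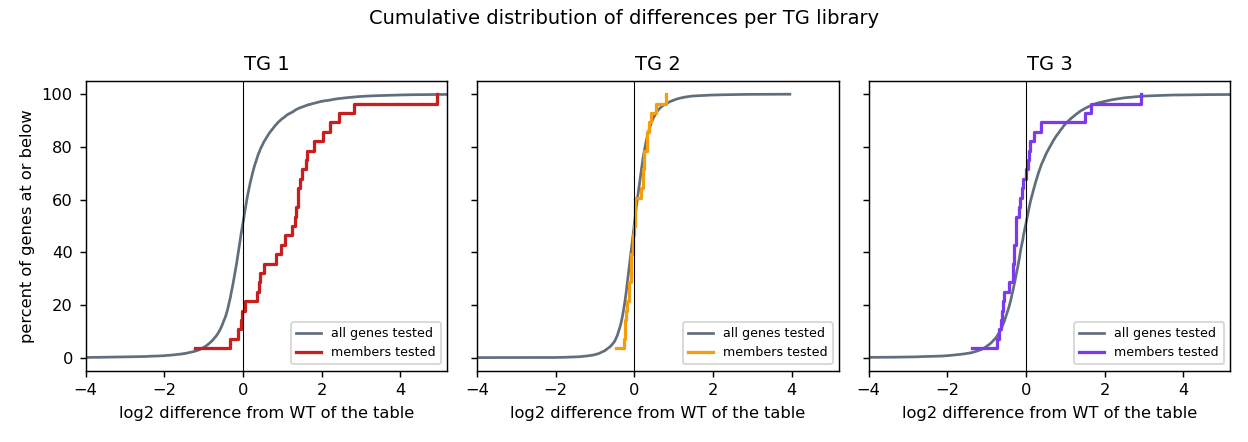
Cumulative share of genes (y axis, percent) at or below a given log2 difference from the WT libraries of the same table (x axis, cropped, so that a few extreme genes are left out), for all 16072 tested genes and the 28 tested members. The members' curve is displaced to the right in TG 1 and lies close to that of all genes in TG 2. In TG 3 the members' median is lower, at -0.25 against -0.012 for all genes.

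The genotype comparison over all 6 libraries, with the table as a term, called 0 of the 28 tested members in edgeR at a Benjamini-Hochberg adjusted p under 0.05, as it called 0.0% of all tested genes. At an unadjusted p under 0.05, edgeR had Egln3 and Pfkfb3 higher and Pfkfb2 lower in TG, which is 3 of 28 members. Among all tested genes 14.1% had such a p, 9.32% higher and 4.81% lower, so the members' share is near the background. The limma-voom test called 0 members (0.0% of all genes) and had 2 at an unadjusted p under 0.05 (13.9%). DESeq2 called 2 members, Pfkfb3 and Egln3 (4.68% of all genes), and had 5 at an unadjusted p under 0.05 (14.8%). Without TG 1, edgeR called 0 members and had the same 3 genes at an unadjusted p under 0.05 (9.21% of all genes). Without TG 2 it called Egln3, Pfkfb3, Pfkfb2 and Gpi1 (13.2%) and had 12 members at an unadjusted p under 0.05 (30.4%). With no filter on low counts it called 10 of the 29 members (5.62%) and had 14 at an unadjusted p under 0.05 (12.1%). In that unfiltered fit the SEs were close for genes of unlike spread, at 0.19 for Pfkm, 0.20 for P4ha1 and 0.30 for Egln3. With the filter they were 0.13, 0.58 and 1.05, so the unfiltered p-values hardly follow a gene's own spread. Fitted log2 fold changes were above 0 for 21 of the 28 members (48.1% of all genes) and, without TG 1, for 11 of 28 (49%).

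**Figure D3:**
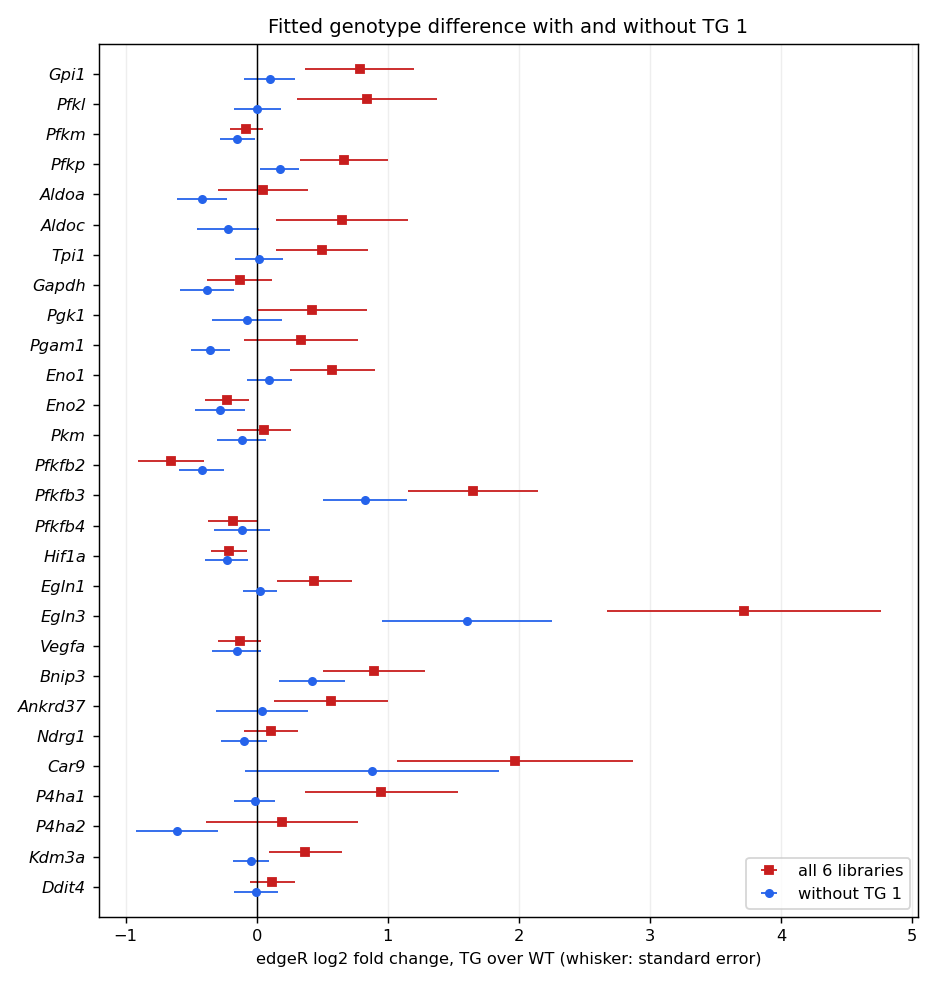
Log2 fold change of TG over WT from edgeR for the 28 tested members, with standard errors as whiskers, over all 6 libraries (red squares) and without TG 1 (blue circles). Without TG 1 most values move to around 0 or below it, while Egln3 and Pfkfb3 stay to the right and Pfkfb2 to the left.

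Promoter sequence was not itself used to choose the genes, although many were chosen as known hypoxia-response genes. The core of the HIF binding motif, ACGTG or GCGTG on either strand (overlapping matches counted, so that CACGTG counts on both strands), was searched in the 250 bases before each RefSeq transcription start on GRCm38.p6. It was present in 34 of 43 windows of the 28 members with a window (79.1%), and in 38.6% of all 32851 windows. At least 2 matches were found in 44.2% of the members' windows and 16.7% of all windows. Both motifs contain CG, and the windows of the members also held more CG dinucleotides, with a median of 13 against 6 for all windows. Gpi1, Tpi1 and Eno2 had no match, and Gpi1 and Tpi1 were high in TG 1. Ndrg1 had no window. A match describes letters, not a bound site. The stretches of 4 members that were high in TG 1 are shown 5′ to 3′ on the gene's strand, with the motifs in capitals. They lie at chr10:59323113-59323295 (plus) for P4ha1, chr7:138909520-138909643 (minus) for Bnip3, chrX:106186930-106186993 (plus) for Pgk1 and chr7:110627547-110627627 (plus) for Adm.
P4ha1: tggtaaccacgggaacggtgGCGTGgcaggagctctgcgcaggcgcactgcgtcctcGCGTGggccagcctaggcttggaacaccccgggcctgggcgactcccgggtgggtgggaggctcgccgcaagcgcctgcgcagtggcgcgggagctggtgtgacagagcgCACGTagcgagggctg
Bnip3: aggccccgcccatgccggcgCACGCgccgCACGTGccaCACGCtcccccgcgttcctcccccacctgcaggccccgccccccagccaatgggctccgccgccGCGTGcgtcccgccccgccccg
Pgk1: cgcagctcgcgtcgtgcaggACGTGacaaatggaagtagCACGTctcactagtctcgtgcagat
Adm: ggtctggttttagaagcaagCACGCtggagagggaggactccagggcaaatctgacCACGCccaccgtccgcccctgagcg
Bnip3 holds 5 matches, P4ha1 3 and the other two 2 each. Matches were also found in members that were not high in TG 1, with up to 2 in a window of Vegfa and 3 in that of Hif1a. Pfkfb2, which was low in TG 1, had up to 4 in a window.

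Among the enzymes of the investment phase, Pfkl, Gpi1, Aldoc, Pfkp, Tpi1 and Aldoa were above both WT libraries of the first table in TG 1, and Pfkm was close to them. Pfkl, the liver-type subunit of phosphofructokinase, which commits sugar to glycolysis, stood at 71.6, 81.5 and 124 CPM across WT and 316, 90.5 and 99.0 CPM across TG. TG 1 differed from the WT level by 2.05 log2 units and TG 3 by -0.32. The fitted log2 fold change of Pfkl was 0.84 (SE 0.53, edgeR adjusted p = 0.510), and 0.0026 without TG 1. Pfkp, the platelet-type subunit, was likewise highest in TG 1, with 236 CPM in TG 1 and 62.4 to 107 CPM in the other 5 libraries. Pfkm, the muscle-type subunit, was at 44.8, 45.6 and 73.0 CPM across WT and 46.6, 39.8 and 68.0 CPM across TG, and its groups overlapped.

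Gpi1, phosphoglucose isomerase, was above the WT level in TG 1 and TG 3. Its levels were 146, 171 and 285 CPM across WT and 481, 145 and 373 CPM across TG, so TG 2 was as low as WT 1. The log2 fold change was 0.78 (SE 0.42, edgeR adjusted p = 0.439). Without TG 2, edgeR called Gpi1 with 1.10 (adjusted p = 0.0426), and without TG 1 the value was 0.097 (0.901). The adjusted p of Gpi1 lay between 0.00578 (no filter on low counts) and 0.978 over the alternatives. Aldoa and Aldoc, the aldolases that cleave the sugar bisphosphate, and Tpi1, which interconverts the triose phosphates, were 0.83, 1.62 and 1.33 log2 units above the WT level in TG 1, and -0.63, 0.11 and -0.29 from it in TG 3. Gpi1, Pfkm, Pfkp, Aldoa and Tpi1 are among the 13 members that overlap another annotated gene. The others are Gapdh, Pfkfb2, Pfkfb3, Hif1a, Ankrd37, Ndrg1, Car9 and Adm. Reads of overlapping genes cannot be told apart without the strand setting of the counting.

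Of the 6 payoff-phase genes, Pgk1, Pgam1, Gapdh and Pkm lay above the WT level in TG 1 and below it in TG 3, Eno1 lay above it in both and Eno2 below it in both. Pgk1, phosphoglycerate kinase, which makes the first ATP of this phase, stood at 227, 198 and 185 CPM across WT and 559, 276 and 112 CPM across TG. Both TG libraries of the first table were above their WT libraries and TG 3 was below WT 3. Pgk1 lies on the X chromosome, and the tables also differ in Xist and Y-linked counts, so sex and table cannot be told apart here. Between the first-table libraries the log2 fold change of Pgk1 was 0.97 (SE 0.36, edgeR unadjusted p = 0.0370, adjusted 0.917), and the log2 ratio of TG 3 to WT 3 was -0.72, with no test for 1 library each. The interaction of table and genotype for Pgk1 had an unadjusted p of 0.0345 in edgeR (adjusted 0.9999), and 0 members, like 0.0% of all genes, passed after adjustment. P4ha2, described below, was the other member with an unadjusted interaction p under 0.05, and 2.28% of all tested genes had one.

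Pgam1, phosphoglycerate mutase, was the least scattered of these enzymes in WT, at 73.2, 73.4 and 75.8 CPM. It reached 187 CPM in TG 1 but only 63.4 and 51.8 CPM in TG 2 and TG 3, so it was above WT in 1 TG library and below it in the other two. Gapdh was at 1096, 1242 and 1406 CPM across WT and 1508, 997 and 936 CPM across TG, again with TG 1 alone above the WT libraries of its table. Gapdh is often used as a reference gene. Its log2 fold change was -0.13 (SE 0.25, edgeR adjusted p = 0.847) and 0.10 in the first table alone. Pkm, pyruvate kinase, differed by 0.41, -0.023 and -0.24 log2 units from the WT level in TG 1, TG 2 and TG 3.

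Of the enolases, Eno1, the widespread form, was at 398.3, 395.8 and 449 CPM across WT and 946, 399.3 and 519 CPM across TG, with TG 2 barely above WT 1. Eno1, Pfkfb3 and Egln3 were the tested members above the WT libraries of their table in every TG library, a pattern shown by 13% of all tested genes. Eno2, the form of neurons and endocrine cells, was not high in TG 1, at 61.8, 49.9 and 99.7 CPM across WT and 54.7, 54.2 and 65.8 CPM across TG. Gapdh, Pgk1, Tpi1, Eno1, Pkm and Aldoa have many processed pseudogenes in the mouse genome, so their counts are uncertain where the authors' counting split such reads.

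The 13 enzymes together took 0.775% of all counts in TG 1 (95% Wilson interval 0.771% to 0.778%), against 0.367% in WT 1 (0.365% to 0.370%) and 0.390% in WT 2 (0.387% to 0.392%). TG 2, with 0.361% (0.358% to 0.363%), lay below both of these WT libraries. In the second table, TG 3 had 0.466% (0.463% to 0.469%) and WT 3 0.562% (0.559% to 0.565%). These intervals hold counting error alone, because the reads carry no molecular identifiers and need not be independent molecules.

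Of the regulators of phosphofructokinase, Pfkfb3 lay above and Pfkfb2 below the WT libraries of the same table in every TG library. Of the 28 tested members, 3 lay above in this way (13% of all tested genes) and 2 below (13.4%). Neither count exceeds the background share. The PFKFB enzymes make and break the sugar bisphosphate that activates phosphofructokinase; Pfkfb3 has high kinase activity and responds to hypoxia, whereas Pfkfb2 was the main form in WT islets. Pfkfb3 (GRCm38 chromosome 2, 11471433 to 11554077, minus strand) stood at 24.6, 17.4 and 18.6 CPM across WT and 113, 25.8 and 52.6 CPM across TG. TG 1 and TG 3 were far above the WT libraries of their tables, and TG 2 was just above WT 1. The group means were 63.8 ± 44.8 and 20.2 ± 3.86 CPM (SD, n = 3), and the log2 fold change was 1.65 (SE 0.50, edgeR adjusted p = 0.246). Without TG 1 it was 0.83 (SE 0.32, edgeR unadjusted p = 0.0400, adjusted 0.534).

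Pfkfb2 (chromosome 1, 130689182 to 130729253, minus strand) was below its WT libraries in every TG library, as were 13.4% of all tested genes. It was at 79.7, 67.6 and 65.6 CPM across WT and 31.6, 62.5 and 41.1 CPM across TG. The log2 fold change was -0.66 (SE 0.25, edgeR adjusted p = 0.314), and -0.42 without TG 1 (edgeR unadjusted p = 0.0471, adjusted 0.537). Without TG 2, edgeR called both, with log2 fold changes of 2.04 for Pfkfb3 (adjusted p = 0.00396) and -0.99 for Pfkfb2 (0.0140). DESeq2 called Pfkfb3 (1.64, adjusted p = 0.0135) but not Pfkfb2 (0.211). Across the alternatives the adjusted p lay between 1.32e-14 and 0.924 for Pfkfb3 and between 0.00868 and 0.976 for Pfkfb2, lowest with no filter on low counts. Pfkfb4 also lay below the WT libraries of its table in every TG library, by at most 0.32 log2 units, with an edgeR log2 fold change of -0.18 (SE 0.19, adjusted p = 0.705).

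**Figure D4:**
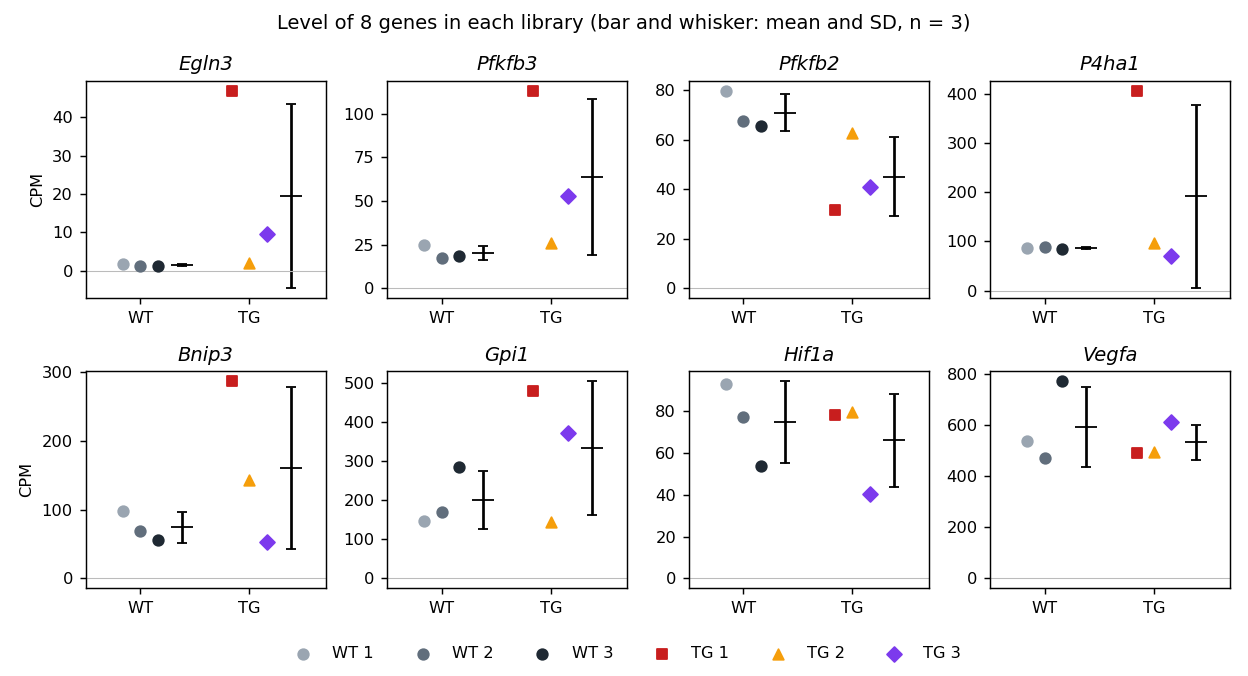
CPM of 8 genes in each library, with the mean and SD of each genotype (n = 3) beside the points. Egln3, Pfkfb3, P4ha1, Bnip3 and Gpi1 are highest in TG 1, Pfkfb2 is lowest in TG 1, and Hif1a and Vegfa overlap between genotypes.

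Levels between paralogues were compared per gene length, as shares of the summed deposited FPKM of an enzyme step within each library. Pfkfb3 held 20.3%, 17.3% and 17.4% of the summed FPKM of the PFKFB genes across WT, against 71.8%, 24.6% and 46.3% across TG. The share of Pfkfb2 was 68.4%, 70.1% and 63.6% in WT and 20.9%, 62.3% and 37.6% in TG, so the leading form differed from WT in TG 1 and TG 3. For phosphofructokinase, Pfkl took 63.7% in TG 1 and 39.8% to 47.3% elsewhere, and Pfkm 14.0% in TG 1 and 29.7% to 44.1% elsewhere. Egln3 was 26.1% of the FPKM of the 3 EGLN genes in TG 1, 5.32% in TG 3 and between 0.683% and 2.10% in the other libraries.

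**Figure D5:**
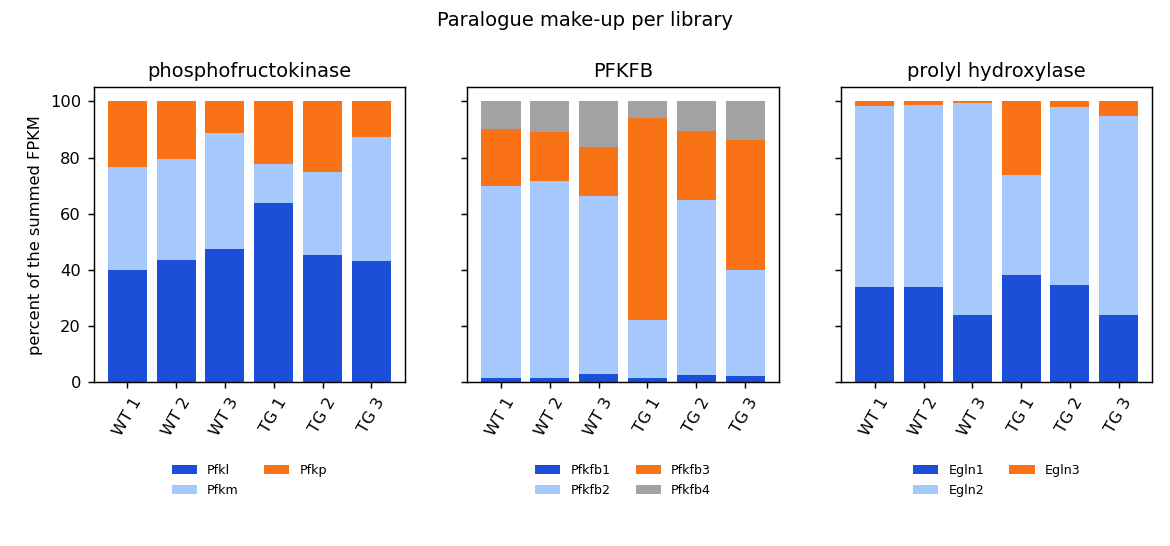
Share of the summed deposited FPKM (y axis, percent) held by each paralogue at 3 steps, per library. Pfkfb3 exceeds Pfkfb2 in TG 1 and TG 3, Pfkl is largest in TG 1, and the Egln3 segment is visible mainly in TG 1.

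Hif1a itself was not higher in TG. Its transcript was at 93.0, 77.4 and 54.0 CPM across WT and 78.2, 79.8 and 40.4 CPM across TG. The groups overlapped, and the log2 fold change was -0.21 (SE 0.14, edgeR adjusted p = 0.532). HIF alpha is controlled mainly through protein stability, which RNA counts do not measure. Egln1, the main oxygen sensor of normal cells, was at 43.5, 42.1 and 55.0 CPM across WT and 90.1, 43.1 and 56.6 CPM across TG, so TG 1 alone stood apart.

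Egln3 showed the largest difference of the tested members. It encodes a prolyl hydroxylase that is itself induced by HIF (chromosome 12, 54178981 to 54203860, minus strand). Counts of Egln3 were 31, 29 and 27 across WT and 1347, 50 and 230 across TG. These correspond to 1.67, 1.28 and 1.18 CPM across WT and 46.8, 1.98 and 9.55 CPM across TG, so every TG library exceeded every WT library. The log2 fold change was 3.72 (SE 1.05, edgeR adjusted p = 0.238), and 1.61 without TG 1 (SE 0.65, edgeR unadjusted p = 0.0474, adjusted 0.537). DESeq2 called Egln3 (3.70, adjusted p = 0.0406), and so did edgeR without TG 2 (4.28, adjusted p = 0.00233). Its adjusted p lay between 5.36e-32 (no filter on low counts) and 0.924 over the alternatives.

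Among the 10 hypoxia targets, those of collagen modification, mitophagy, pH control and vasodilation were highest in TG 1. P4ha1, a catalytic subunit of collagen prolyl hydroxylase (chromosome 10, 59323296 to 59373304, plus strand), stood at 85.8, 89.1 and 84.5 CPM across WT and 406, 97.7 and 70.9 CPM across TG. The WT libraries were nearly level, and TG 3 was below them. The log2 fold change of P4ha1 was 0.95 (SE 0.58, edgeR adjusted p = 0.498), and -0.015 without TG 1. P4ha2, another catalytic subunit of the same enzyme, was at 15.6, 18.5 and 25.7 CPM across WT and 47.9, 16.1 and 9.96 CPM across TG, with TG 1 highest and TG 3 lowest of the 6 libraries. Its interaction of table and genotype had an unadjusted p of 0.0402 in edgeR (adjusted 0.9999).

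Bnip3, a mitophagy receptor on the outer mitochondrial membrane (chromosome 7, 138890836 to 138909519, minus strand), was at 98.5, 68.8 and 55.5 CPM across WT and 286, 143 and 52.5 CPM across TG. Both TG libraries of the first table exceeded both WT libraries, and TG 3 was close to WT 3. Its log2 fold change was 0.89 (SE 0.39, edgeR unadjusted p = 0.0561, adjusted 0.365), and between the first-table libraries 1.36 (SE 0.38, edgeR unadjusted p = 0.0115, adjusted 0.917). Among those libraries edgeR called 0 members (0.0% of all genes), and 7 had an unadjusted p under 0.05, all higher, where 5.34% of all tested genes had one and 4.24% were higher. The 7 were Bnip3, Egln3, Pgk1, Pfkp, Pfkfb3, Pfkl and P4ha1. Ankrd37, an ankyrin-repeat protein, was at 8.69 CPM in TG 1 and 1.95 to 4.10 CPM in the other libraries.

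Adm and Car9 were nearly silent in WT. Adm, the vasodilator peptide adrenomedullin (chromosome 7, 110627661 to 110629820, plus strand), had 3, 5 and 6 counts across WT and 415, 15 and 8 counts across TG, or 14.4 CPM in TG 1 and at most 0.595 CPM elsewhere. It did not pass the filter on low counts. With no such filter edgeR called it (log2 fold change 3.92, SE 0.48, adjusted p = 8.86e-14), with TG 1 holding nearly all of its counts. As described above, the SEs of the unfiltered fit hardly follow a gene's own spread, so this p-value does not measure that of Adm. Car9, a membrane carbonic anhydrase, had 1, 13 and 2 counts in WT and 59, 9 and 11 in TG, and WT 2 overlapped the TG libraries.

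Vegfa, the vascular growth factor that beta cells secrete at high levels, was not above the WT level in TG 1, unlike the other targets. In TG 3 it was -0.33 log2 units from the WT level, near the median of the tested targets, -0.25. It was at 536, 470 and 770 CPM across WT and 490, 495 and 612 CPM across TG, and its log2 fold change was -0.13 (SE 0.16, edgeR adjusted p = 0.755). Kdm3a, a histone demethylase, was at 91.9 CPM in TG 1 and 39.2 to 48.2 CPM in the other 5 libraries. Ddit4, an inhibitor of mTOR signalling, and Ndrg1, a stress-responsive gene, differed less, with 0.44 and 0.54 log2 units above the WT level in TG 1 and -0.31 and -0.25 in TG 3. The median of the 9 tested targets was 1.40, 0.16 and -0.25 log2 units from the WT level in TG 1, TG 2 and TG 3.

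Other genes of the same pathways were taken from separate lists that hold no member. These lists were also chosen with earlier results of these data known, so their counts are not independent of those of the members. Of 22 tested further glycolysis genes, an unadjusted p under 0.05 in edgeR was reached by 7 that were higher in TG (9.32% of all genes) and 2 that were lower (4.81%), and 0 passed after adjustment. In TG 1, 11 of the 22 were at least 1 log2 unit above the WT level (9.26% of all genes), in TG 2 3 (2.25%) and in TG 3 5 (11.4%). Their median log2 fold change was 0.50, against -0.015 for all genes. Ldha, which makes lactate and is normally kept low in beta cells, was at 15.8, 26.6 and 14.9 CPM across WT and 280, 25.5 and 32.9 CPM across TG, with TG 2 inside the WT range. Slc16a3, a lactate exporter induced by HIF, was at 75.7 CPM in TG 1 and 1.35 to 4.33 CPM in the other libraries. Hk2, a hexokinase, was at 14.4 CPM in TG 1, 4.44 CPM in TG 3 and 0.702 to 1.88 CPM elsewhere. On the log2 fold change scale edgeR gave 2.30 (SE 0.85, adjusted p = 0.304) for Ldha, 3.31 (SE 1.21, 0.301) for Slc16a3 and 2.16 (SE 0.84, 0.323) for Hk2.

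Not all of these genes were high in TG 1. Slc2a2, the glucose transporter of beta cells, was at 317, 352 and 229 CPM across WT and 40.8, 183 and 70.5 CPM across TG, and Tigar, which lowers the sugar bisphosphate made by PFKFB enzymes, was at 39.1, 38.4 and 46.2 CPM across WT and 20.2, 31.2 and 20.3 CPM across TG. Both were below the WT libraries of their table in every TG library. Slc2a1, the widespread glucose transporter, was at 117 CPM in TG 1 and 17.4 to 34.3 CPM in the other libraries. Fbp2 and Fbp1, fructose bisphosphatases of the reverse pathway, were above the WT libraries of their table in every TG library, least so in TG 2, and their fitted values were 3.93 (SE 0.89, edgeR adjusted p = 0.199) and 0.92 (SE 0.27, 0.245) on the log2 scale.

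A further list held 38 tested hypoxia targets and shares Slc2a1, Slc2a3, Hk2 and Ldha with the glycolysis list. Of the 38, 13 were higher at an unadjusted p under 0.05 in edgeR (9.32% of all genes). At such a p 1 was lower (4.81%), and 0 passed after adjustment. Their median log2 fold change was 0.64. At least 1 log2 unit above the WT level were 23 in TG 1 (9.26% of all genes), 4 in TG 2 (2.25%) and 6 in TG 3 (11.4%), the last count being close to the background. Ak4, a mitochondrial adenylate kinase, was at 59.2 CPM in TG 1 and 0.832 to 3.61 CPM in the other libraries, and Pdk1, which inhibits pyruvate dehydrogenase, at 112 CPM and 22.7 to 38.4 CPM. Hilpda, a lipid-droplet protein, was at 6.75, 6.47 and 6.04 CPM across WT and 41.2, 11.3 and 9.80 CPM across TG, and Ppp1r3c, a glycogen-targeting subunit, at 5.02, 4.27 and 3.50 CPM and 14.0, 9.84 and 8.14 CPM, both without overlap of the genotypes. The gene that the authors' annotation names Pgm1, which can differ from current naming, had a log2 fold change of 0.45 (SE 0.14). Hmox1, heme oxygenase, ran the other way, at 125, 228 and 105 CPM across WT and 99.8, 113 and 44.4 CPM across TG. Of 13 tested regulators of HIF, 0 had an unadjusted p under 0.05 in edgeR (14.1% of all genes). Vhl was at 0.012 (SE 0.13) and Epas1, the other HIF alpha subunit gene, at 0.20 (SE 0.52) on the log2 fold change scale.

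Markers of other cell types also differed between the libraries. The 9 beta-cell markers, 8 of them lower in TG, summed to 237951, 230422 and 116753 CPM across WT and 56342, 224048 and 54577 CPM across TG. Their median differed from the WT level by -2.36, -0.54 and -1.02 log2 units across TG. The 9 stellate and fibroblast markers, 7 of them higher, summed to 24.6 to 76.4 CPM in WT and to 178, 32.9 and 135 CPM across TG, and the 8 immediate-early genes, 7 of them higher, to 294 to 349 CPM across WT and 530, 255 and 619 CPM across TG. Both sums were thus high in TG 1 and also in TG 3. The 9 endothelial markers, 8 of them higher, summed to 262 to 417 CPM in WT and to 341, 309 and 554 CPM across TG, with TG 1 inside the WT range. Of the tested markers, 3 of 6 myeloid, 6 of 9 acinar and 3 of 3 red blood cell genes were higher in TG. The myeloid sum was 76.5 to 168 CPM in WT and 162, 94.1 and 183 CPM across TG, the acinar sum 140 to 6495 CPM and 3326, 4458 and 284 CPM, and the red blood cell sum 1.05 to 5.06 CPM and 5.74, 2.26 and 2.86 CPM. Amy2a5 was at 0 in all libraries but TG 3. All tested markers of duct (8), alpha (6) and delta and PP cells (4) were higher in TG, as were 3 of 4 Schwann markers. The duct sum was 887 to 1346 CPM in WT and 2312, 1855 and 1844 CPM across TG, all above the WT range. The alpha-cell sum was 18499 to 27031 CPM in WT and 47757, 29633 and 22594 CPM across TG, with TG 3 inside the WT range. The delta- and PP-cell sum was 8097 to 9312 CPM in WT and 25521, 12930 and 35881 CPM across TG, highest in TG 3, and the Schwann sum 11.5 to 16.1 CPM in WT and 19.4, 16.2 and 20.9 CPM across TG. The part of these cells in the level of the glycolytic and hypoxia genes of TG 1 was not tested.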

How the data were processed

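Per the labels' protocols, NEBNext libraries were made from 3 µg of TRIZOL-extracted islet RNA. The submitters' processing notes name CASAVA 1.8, HISAT2, GRCm38 and mm10. Which counter, strand setting and annotation were used is not stated in the sources used here. The authors deposited whole-number raw counts and, per the file headers, FPKM with gene names, lengths and positions. FPKM served here only for shares within a library. After joining both count tables by gene ID, edgeR 4.0.16 (R 4.3.3) tested 16072 genes (filterByExpr, TMM, quasi-likelihood F-test, terms for table and genotype, Benjamini-Hochberg threshold 0.05), and its SE is |log2 fold change| / sqrt(F). Alternatives used DESeq2 1.42.0 and limma 3.58.1. The fit was also run on simulated counts with the same relative spread for all genes and no deviating library. That run cannot show how the fit behaves where a library such as TG 1 stands apart. Depth was 20176456 to 27482339 counts per library. Even the closest pair of libraries, WT 1 and TG 2, differed well beyond sampling noise (chi-square / df of 31.6, against 42.4 for WT 1 and WT 2, 136 for TG 1 and TG 3 and 335 for TG 1 and TG 2). Differences from the WT level are log2 CPM (prior count 2) minus the mean log2 CPM of the WT libraries in that table. The second table holds 1 library per genotype. Interaction tests and fits that leave out a first-table library therefore assume that a lone library varies like the others. Leaving out TG 3 or WT 3 leaves a lone library that the table term absorbs, so both fits nearly repeat the first-table fit. Their log2 fold changes for Egln3 were 4.052 and 4.045, against 4.053 in the first table only. All 29 members are named. From each further list up to 6 genes are named by p (under 0.05, mean of at least 5 CPM), plus Slc2a1, Hk2, Ldha, Pdk1, Epas1 and Vhl; some genes that meet this rule are not reported here. Members and lists were chosen with earlier results of these data known. Of 41 further hypoxia targets 40 matched a gene, as did 22 of 23 glycolysis genes and 14 of 14 HIF regulators.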

Additional observations from a re-analysis of the deposited data

How the results depend on the processing

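Of 15 alternatives, 3 changed the count of members called: DESeq2 gave 2, edgeR without the low-count filter 10, and leaving out 1 library 0 to 4, where 4 were called without TG 2. The count over all genes was 752, 1672 and 0 to 2188 in the same order. Members at an unadjusted p under 0.05 numbered 3, against 5 in DESeq2, 7 in the first table only and 14 without the low-count filter. The shares of all genes were 14.1%, 14.8%, 5.34% and 12.1% in the same order. With 1 library left out, 2 to 12 members had such a p. Without TG 3 or without WT 3 there were 8, and both fits nearly repeat the first-table fit. Shares of all genes are not reported here for the fits without TG 3 or a WT library. With 1 library left out, members with a value above 0 numbered 11 (without TG 1) to 23 (without TG 3), and the median log2 fold change ran from -0.12 to 0.77 for the 13 glycolysis enzymes (0.42 with all libraries) and from -0.015 to 0.91 for the hypoxia targets (0.37), lowest without TG 1 and highest without TG 3. Without WT 1, the library with Mir203 reads, 0 members were called and 2 had an unadjusted p under 0.05.

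Of 420 member values under an alternative, 386 kept direction and side of the threshold, 15 passed it and 19, of 11 genes, changed sign. With 1 library left out, these ran from -0.42 to 0.38 for Aldoa, -0.22 to 0.995 for Aldoc, -0.38 to 0.10 for Gapdh, -0.076 to 0.98 for Pgk1, -0.35 to 0.77 for Pgam1, -0.12 to 0.21 for Pkm, -0.10 to 0.29 for Ndrg1, -0.015 to 1.53 for P4ha1, -0.61 to 0.91 for P4ha2, -0.043 to 0.59 for Kdm3a and -0.0081 to 0.33 for Ddit4, each lowest without TG 1. Aldoa was at -0.020 in limma-voom and Gapdh at 0.10 in the first table only. The median of the 13 enzymes in TG 2, -0.035, was 0.0093 with TMM without hormone and acinar genes. The cause was not tested. No paired analysis was possible because the labels give the genotypes no shared replicate numbers. Low counts limit Adm and Car9.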

Other observations

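Seed matches to the transgene's microRNA were counted in the longest annotated 3′ UTR of each gene (GENCODE M21, GRCm38). The mature microRNA, from RefSeq, has its seed (bases 2 to 8) in capitals.
mmu-miR-203-3p: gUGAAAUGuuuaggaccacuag
The reverse complement of the seed, in DNA letters, CATTTCA, was found in 2 of 28 members with a UTR (7.14%), and in 17.3% of 13844 tested genes. The median UTR lengths were 1081 and 1181 bases. The members were Hif1a and Egln1, with 1 match each, shown on the gene's strand with the match in capitals, at chr12:73945960-73945986 (plus) and chr8:124910366-124910392 (minus).
Hif1a: agctcctcagCATTTCAccattgcatt
Egln1: taactgagttCATTTCAtctctttttt
Hif1a had a log2 fold change of -0.21 (SE 0.14) and Egln1 of 0.44 (SE 0.28), with edgeR adjusted p of 0.532 and 0.517, so these 2 members lay on opposite sides of 0. A match describes letters and no binding was measured.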
